A study of Mus musculus with 16 samples.

Results

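The juxtaglomerular (JG) cell of the kidney releases renin in answer to signals read by receptors on its surface, and 9 of the genes that encode them are described here: Adrb1, Ptger2, Ptger4, Ptgir, Adora1, Npr1, Npr3, Ednra and Ednrb. They were taken by gene symbol from a count table of 46078 genes. The table covers mouse JG cells in monolayer culture, which carry YFP driven by the renin promoter. They received miR-106b or, as control, a microRNA precursor of non-mammalian sequence by transfection, and RNA was taken after 48 h. Each transfection gave 4 libraries of polyA RNA and, from 4 other cultures, 4 libraries of RNA immunoprecipitated with Ago2 (Ago2-IP), the Argonaute protein to which a microRNA and its target mRNA are bound in the silencing complex (RISC). The 4 groups, named by RNA and transfection, share the same engineered cells, and the control cells were transfected as well.

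Renin release rises with cAMP and falls with intracellular calcium. The β1-adrenergic receptor and the prostanoid receptors EP2, EP4 and IP act through the stimulatory G protein Gs and raise cAMP, and renal sympathetic nerves and prostaglandins of the macula densa drive renin release through them. The adenosine A1 receptor, the endothelin receptors and the atrial natriuretic peptide receptor, which makes cGMP, are known for restraining it.

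The transfected microRNA is shown with the only 7-base matches found among the 3′UTRs of the 9 receptors, because a match in the 3′UTR is the usual mark of a direct target. In the mature microRNA, capitals mark the seed, bases 2 to 8, as given by RefSeq (GRCm38.p6, chr5:138165787-138165807, minus strand):
miR-106b-5p: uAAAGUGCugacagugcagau
In the sites, capitals mark the 7-base match, which in Ptgir ends with an A opposite base 1, outside the seed, and the flanks are 10 bases on each side, read on the strand of the gene from GRCm38 (Ptgir, chr7:16910341-16910367, plus strand, and Adora1, chr1:134201309-134201335, minus strand):
Ptgir: cccaaaagaaCACTTTAacacaggacc
Adora1: cttcctgctgGCACTTTtctaatcttg
The longest 3′UTR of each receptor in GENCODE release M21 was searched on the gene's strand for GCACTTT, which pairs with bases 2 to 8, and for CACTTTA, which pairs with bases 2 to 7 and has an A after them. The 2 motifs overlap where they form GCACTTTA. Adora1 held 1 GCACTTT at position 1626 of its 3726-base 3′UTR, and Ptgir held 1 CACTTTA at position 1237 of 1791 bases. Neither motif was in the 3′UTRs of the other 7, which span 635 bases in Npr1 to 5281 bases in Npr3, although that of Adrb1 held 1 CACTTT, the shorter match to bases 2 to 7 alone. Among 13234 tested genes with a 3′UTR, 15.3% held GCACTTT and 23.0% held at least 1 of the motifs, with a median 3′UTR of 1398 bases. A match describes letters of the sequence and is not a measured binding site.

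Of the 9 receptors, 8 were among the 14897 genes that passed the filter on low counts and were tested. Each of these 8 was at 1.34 CPM (counts divided by library size, with TMM factors computed separately for polyA and Ago2-IP RNA) or more in all 16 libraries, so none passed through 1 group alone. Ptger2 did not pass. Libraries held between 2579086 and 9459585 counts, and the deepest were those of polyA control, with a median of 6450099. No pair of replicates agreed within sampling noise. The labelled cell type was checked by its markers: Ren1, the renin gene itself, had 0 of 70668386 counts, which allows up to 0.0425 CPM if no Ren1 reads were taken out before deposit, which the sources used here do not state, and Akr1b7, a further renin cell marker, had between 0 and 3 counts in each group. Smooth muscle markers, given in CPM scaled by library size alone, were present and differed in pattern. Acta2 had means of 757 and 590 CPM in polyA control and miR-106b and 254 and 252 CPM in Ago2-IP control and miR-106b. In the same order Tagln had 498, 351, 89.5 and 86.7 CPM, whereas Myh11 was lowest in polyA control, with 15.6, 32.2, 58.0 and 54.8 CPM. Transcripts of 25 cardiac muscle genes made up 2.88 to 4.04% of counts in polyA control libraries and 5.56 to 9.54% in polyA miR-106b libraries, whereas in Ago2-IP RNA they made up 12.8 to 13.7% in control and 12.4 to 13.6% with miR-106b. The label was thus not met by renin counts, and the receptors are described below as transcripts of these cultures.

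In polyA RNA, 5 of the 8 tested receptors were higher with miR-106b and 1 was lower. Adrb1, Ednra, Adora1, Ptgir and Npr1 rose by log2 fold changes of 0.74 to 1.33, Ptger4 fell by 0.56, and Npr3 and Ednrb did not pass the test. A gene was called where the two-sided quasi-likelihood test of edgeR gave it an adjusted p below 0.05, by Benjamini-Hochberg over the 14897 genes. Over all genes tested, 19.0% were called higher and 21.5% lower, so that calls were frequent in this comparison. The median log2 fold change was 1.02 over the 8 receptors and -0.05 over all genes. In Ago2-IP RNA, no receptor was called in either direction, where 0.0% of all genes were. DESeq2's test and edgeR's likelihood ratio test also called 0 receptors, where they called only 2 of 14893 and 18 of 14897 genes. Receptors that raise renin release and receptors that restrain it were both among the 5 that rose.

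Adrb1 (ENSMUSG00000035283, chr19:56722372-56724862, plus strand) encodes the β1-adrenergic receptor, through which sympathetic nerves stimulate renin release. In polyA control its levels were 15.7, 12.0, 14.4 and 16.3 CPM, and in polyA miR-106b they were 22.6, 39.3, 25.1 and 36.7 CPM. Ago2-IP RNA held 55.3, 59.6, 55.5 and 53.4 CPM in control cells and 49.7, 46.2, 46.9 and 52.5 CPM after miR-106b. Every polyA miR-106b library was thus above every polyA control library, and every Ago2-IP library was above both. The polyA means of 31.0 ± 8.31 against 14.6 ± 1.91 CPM (SD, n = 4 each) gave a log2 difference of 1.08, with an SE of 0.194 and an adjusted p of 0.00112 (edgeR). In Ago2-IP RNA the miR-106b libraries were below every control library, at 48.8 ± 2.88 against 56.0 ± 2.61 CPM. That difference of -0.20 on the log2 scale (SE 0.0953) had an unadjusted p of 0.0441 in edgeR's test and an adjusted p of 0.880. Adrb1 was the only receptor with an unadjusted p under 0.05 in Ago2-IP RNA, where 5.54% of all genes had one.

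The prostanoid receptors differed from each other. Ptger4 (ENSMUSG00000039942, chr15:5206661-5244187, minus strand) encodes EP4, a receptor for prostaglandin E2 that raises cAMP. PolyA control libraries held 29.3, 29.5, 27.9 and 32.5 CPM of it, and polyA miR-106b libraries 24.9, 18.5, 18.2 and 18.9 CPM. In Ago2-IP RNA it was at 13.4, 9.24, 11.0 and 8.98 CPM in control cells, and with miR-106b at 9.32, 15.8, 10.3 and 9.33 CPM. Ptger4 alone among the 8 was highest in polyA control, lower in every polyA miR-106b library and lowest in Ago2-IP RNA. Its log2 fold change in polyA RNA was -0.56 (SE 0.140, adjusted p = 0.00726, edgeR), and in Ago2-IP RNA it was 0.09 (SE 0.214, adjusted p = 0.984). The direction in Ago2-IP RNA turned to -0.13 without Ago2-IP miR-106b replicate 2.

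Ptgir (ENSMUSG00000043017, chr7:16906490-16910905, plus strand) encodes IP, the prostacyclin receptor, which also couples to Gs. The polyA control libraries were at 4.43, 3.46, 5.10 and 6.47 CPM, those of miR-106b at 6.50, 13.1, 7.45 and 10.8 CPM. Its Ago2-IP levels lay between 13.9 and 19.2 CPM in both transfections. The polyA groups did not overlap, but the gap between 6.47 and 6.50 CPM was narrow, and with scaling by library size alone they overlapped. Ptgir had a log2 rise of 0.96 (SE 0.278, adjusted p = 0.0149, edgeR), a call that was lost without polyA miR-106b replicate 2, at 0.75 with an adjusted p of 0.0610. Its 3′UTR holds the CACTTTA shown above, and its log2 fold change in Ago2-IP RNA was 0.09 (SE 0.169, adjusted p = 0.970).

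Ptger2 (ENSMUSG00000037759, chr14:44988195-45003820, plus strand), which encodes the other Gs-coupled receptor for prostaglandin E2, EP2, had 26 counts over all 16 libraries. Control and miR-106b libraries summed to 6 and 3 in polyA RNA and to 6 and 11 in Ago2-IP RNA. No library held more than 7 counts and 4 libraries held 0, where 3 counts are the limit that a count of 0 allows. A difference between groups was not detectable at this depth (exact permutation tests, two-sided, with p = 0.429 in Ago2-IP RNA and a larger p in polyA RNA).

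Adora1 (ENSMUSG00000042429, chr1:134199223-134235431, minus strand) encodes the adenosine A1 receptor, which lowers cAMP through Gi and restrains renin release. PolyA RNA held 6.01, 3.25, 5.55 and 4.02 CPM of it in control cells and 10.8, 14.2, 6.35 and 16.3 CPM after miR-106b. Ago2-IP RNA held 17.1, 20.4, 20.2 and 15.8 CPM in control cells and 22.9, 22.5, 15.5 and 15.5 CPM after miR-106b. Replicate 3 of polyA miR-106b, at 6.35 CPM, lay close to the highest control library, and the other 3 lay well above it. The rise of Adora1 in polyA RNA, 1.33 on the log2 scale (SE 0.297, adjusted p = 0.00371, edgeR), was the largest of the 6 calls. In Ago2-IP RNA its groups overlapped (log2 fold change 0.05, SE 0.163), although its 3′UTR holds the GCACTTT shown above. Adora1 shares 1162 exon bases with Mybph on the opposite strand, and reads of the pair cannot be told apart in these libraries. Mybph was itself assigned 1 to 6 counts in each group.

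The natriuretic peptide receptors behaved unlike each other. Npr1 (ENSMUSG00000027931, chr3:90450591-90465866, minus strand) encodes the guanylyl cyclase that binds atrial and brain natriuretic peptides. Control cells had 25.2, 17.1, 21.3 and 24.3 CPM in polyA RNA and 56.8, 61.6, 50.9 and 59.3 CPM in Ago2-IP RNA. The miR-106b cells had 31.6, 42.8, 33.1 and 38.6 CPM in polyA RNA and 48.9, 45.3, 60.8 and 60.1 CPM in Ago2-IP RNA. The polyA groups stood apart and the Ago2-IP groups overlapped. Npr1 rose in polyA RNA from 22.0 ± 3.64 to 36.5 ± 5.16 CPM (SD, n = 4 each), a log2 rise of 0.74 (SE 0.156, adjusted p = 0.00273, edgeR) and the smallest of the 5 rises.

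Npr3 (ENSMUSG00000022206, chr15:11839896-11905674, minus strand) encodes the clearance receptor, which removes natriuretic peptides and has no cyclase. In polyA control its levels were 47.1, 34.6, 35.2 and 45.0 CPM. In polyA miR-106b they were 328 and 211 CPM in replicates 1 and 4, but 25.2 and 31.5 CPM in replicates 2 and 3. Of the miR-106b libraries, 2 were thus far above and 2 below every control library. Its Ago2-IP levels were 6.28, 4.48, 20.7 and 47.5 CPM in control cells and 29.9, 60.3, 25.9 and 14.9 CPM after miR-106b, again with a wide spread within each group. Npr3 had the largest fitted difference in polyA RNA, 1.88, but with an SE of 0.771 and an adjusted p of 0.0852 (edgeR) it was not called. It was called without polyA miR-106b replicate 2 (adjusted p = 0.0268) or replicate 3 (0.0206), and came to 1.15 (adjusted p = 0.261) without replicate 1 and to 1.20 (0.194) with the replicate number as a block. The other tools differed too, with adjusted p values of 0.0464 in DESeq2's Wald test and 0.00203 in edgeR's likelihood ratio test. A filter of at least 10 counts in every library gave an adjusted p of 0.0433 in edgeR's quasi-likelihood test. Within groups the SD of Npr3 on the log2 CPM scale was 1.27, and 99.6% of the 10957 genes that averaged 5 CPM or more had a smaller one. The median of those genes was 0.22.

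Both endothelin receptors were low in polyA control. Ednra (ENSMUSG00000031616, chr8:77663031-77724464, minus strand) encodes the type A receptor, which raises calcium in smooth muscle. It stood at 11.5, 8.29, 7.95 and 10.1 CPM in polyA control libraries and at 12.3, 24.6, 23.2 and 25.2 CPM in those of miR-106b. In Ago2-IP RNA the levels of Ednra lay between 31.8 and 39.4 CPM in both transfections. All polyA miR-106b libraries were above control, replicate 1 by the least. The rise of Ednra was 1.16 on the log2 scale (SE 0.229, adjusted p = 0.00187, edgeR), and its difference in Ago2-IP RNA was 0.02 (SE 0.114).

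Ednrb (ENSMUSG00000022122, chr14:103814625-103844173, minus strand), the type B endothelin receptor found on endothelium and smooth muscle, had 6 to 57 counts per library. PolyA levels were 4.11, 3.15, 2.85 and 4.20 CPM in control cells and 1.34, 7.76, 6.63 and 12.2 CPM after miR-106b. Replicate 1 of polyA miR-106b was below every control library and the other 3 were above them. The log2 fold change of 0.91 (SE 0.445, adjusted p = 0.122, edgeR) did not pass the test, and without that replicate it was 1.37 with an adjusted p of 0.00135. Without replicate 4 of polyA miR-106b it was 0.53 with an adjusted p of 0.401. In Ago2-IP RNA its mean was 9.72 ± 1.36 CPM with miR-106b against 12.2 ± 2.91 CPM in control (SD, n = 4 each), a log2 difference of -0.31 (SE 0.213, adjusted p = 0.912).

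**Figure D1:**
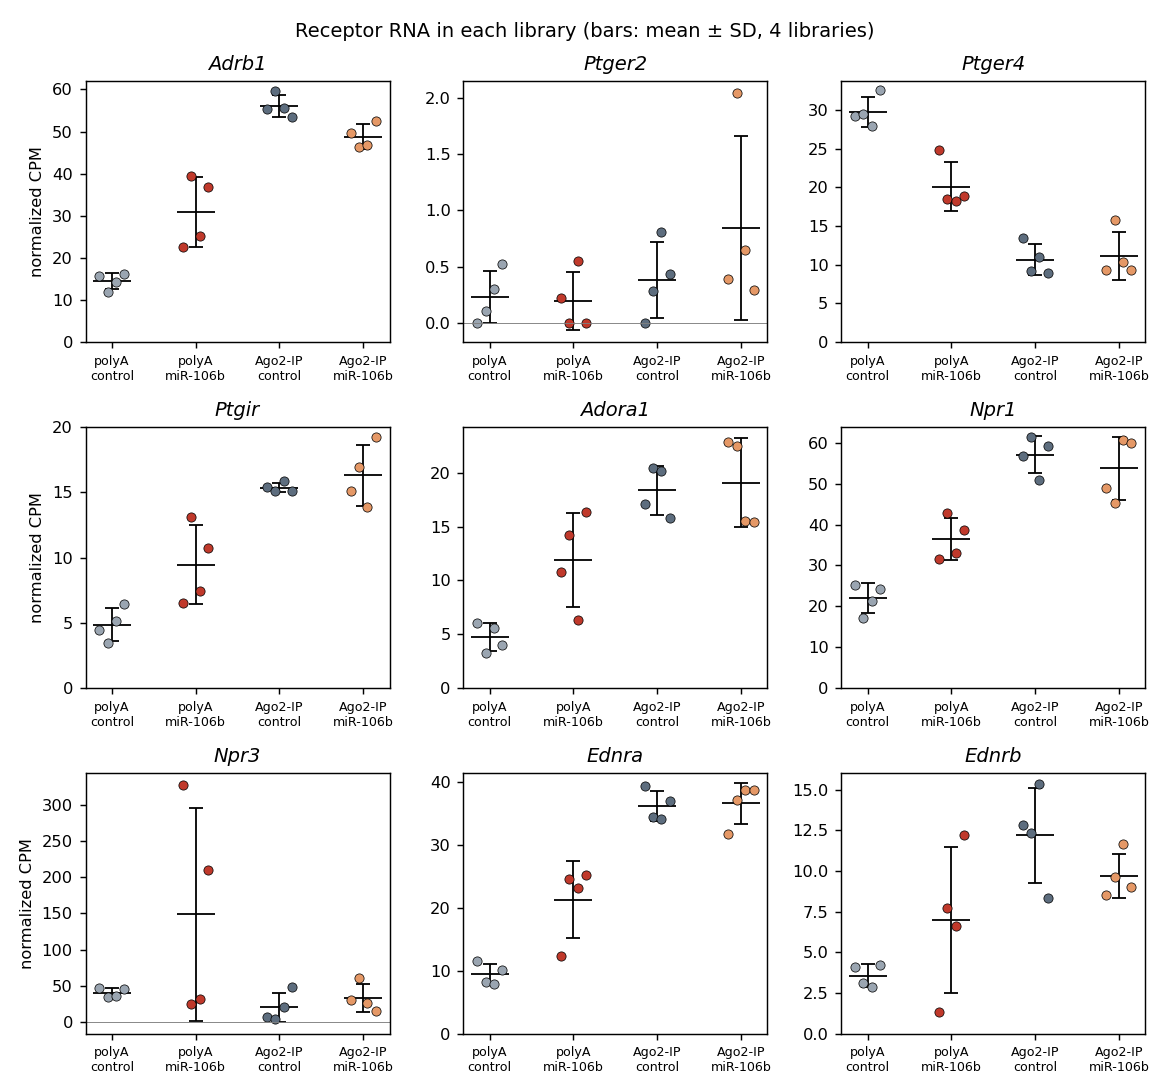
Normalized CPM (vertical axes, linear, 1 panel per receptor) in each library of the 4 groups, where points are libraries and bars give the mean ± SD of 4. Ptger4 has its highest levels in polyA control, near 30 CPM, while Adrb1, Ptgir, Adora1, Npr1, Ednra and Ednrb have their lowest means there, and Npr3 has 2 polyA miR-106b libraries at 211 and 328 CPM.

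Over the 8 tested receptors, the libraries of miR-106b and control did not overlap for 6 in polyA RNA, with Adrb1, Ptgir, Adora1, Npr1 and Ednra above and Ptger4 below. Each had p = 0.0286 in an exact permutation test, two-sided, the smallest that 4 against 4 libraries can give. Among all genes tested, 38.3% had groups that did not overlap in polyA RNA and 3.24% in Ago2-IP RNA, where Adrb1 was the only receptor. With scaling by library size alone, 5 receptors were separated in polyA RNA. The replicates were separate cultures, so the tests measure the spread between cultures.

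In control cells, 6 of the 8 receptors were higher in Ago2-IP than in polyA RNA and Ptger4 was lower. Adora1, Adrb1, Ednra, Ednrb and Ptgir were about 4 to 5 times higher, with log2 fold changes of 2.28 (SE 0.242), 2.25 (SE 0.150), 2.25 (SE 0.176), 2.07 (SE 0.344) and 1.98 (SE 0.218). Npr1 was higher by 1.69 (SE 0.139), and Ptger4 was lower, at -1.18 (SE 0.172, adjusted p = 1.68e-06, edgeR). Npr3, at -0.68 (SE 0.866), did not pass the test. Over all genes, 35.1% were called higher and 34.6% lower in this comparison, or 4145 higher and 6784 lower with scaling by library size alone, against 5224 and 5157. That scaling moved the median of all genes from -0.03 to -0.35 on the log2 scale, and the receptors kept their directions and calls.

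With miR-106b, 5 receptors were higher and 1 was lower in Ago2-IP than in polyA RNA. Ptgir (0.97, SE 0.220), Ednra (0.96, SE 0.174), Adora1 (0.85, SE 0.238), Adrb1 (0.83, SE 0.150) and Npr1 (0.72, SE 0.141) were called higher in Ago2-IP than in polyA RNA. Ptger4 was called lower, at -0.68 (SE 0.185), while Ednrb (0.71, adjusted p = 0.113) and Npr3 (-2.03, adjusted p = 0.0658) were not called by edgeR. Here 21.9% of all genes were called higher and 24.5% lower. Npr3 became a call without polyA miR-106b replicate 2 (adjusted p = 0.0248) or 3 (0.0326), and Ednrb without replicate 4 (0.0162).

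The change of the Ago2:polyA ratio with miR-106b, tested over all 16 libraries by the interaction term of transfection with the kind of RNA, was negative for 7 of 8 receptors and called for 6. It was -1.43 for Adrb1 (SE 0.210, adjusted p = 3.01e-05, edgeR), -1.43 for Adora1 (SE 0.339, adjusted p = 0.00269), -1.28 for Ednra (SE 0.246, adjusted p = 0.000371) and -0.97 for Npr1 (SE 0.197, adjusted p = 0.000640). Ptgir had -1.02 (SE 0.310, adjusted p = 0.0161), a call lost without polyA miR-106b replicate 2 (adjusted p = 0.0915). Ednrb had -1.36 (SE 0.499, adjusted p = 0.0459), a call lost when any of 13 of the 16 libraries was left out, with the largest adjusted p, 0.141, in the absence of polyA miR-106b replicate 4. Npr3 (-1.35, SE 1.21) and Ptger4 (0.50, SE 0.255, adjusted p = 0.155) were not called. Among all genes, 7.61% were called higher and 19.7% lower, or 2002 and 2304 genes with scaling by library size alone, against 1134 and 2937. The median log2 change was -1.32 over the receptors and -0.07 over all genes. The ratio shares its libraries with the comparisons within each kind of RNA, where 5 of the 6 receptors were called in polyA RNA, Ednrb was not, and none was called in Ago2-IP RNA.

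**Figure D2:**
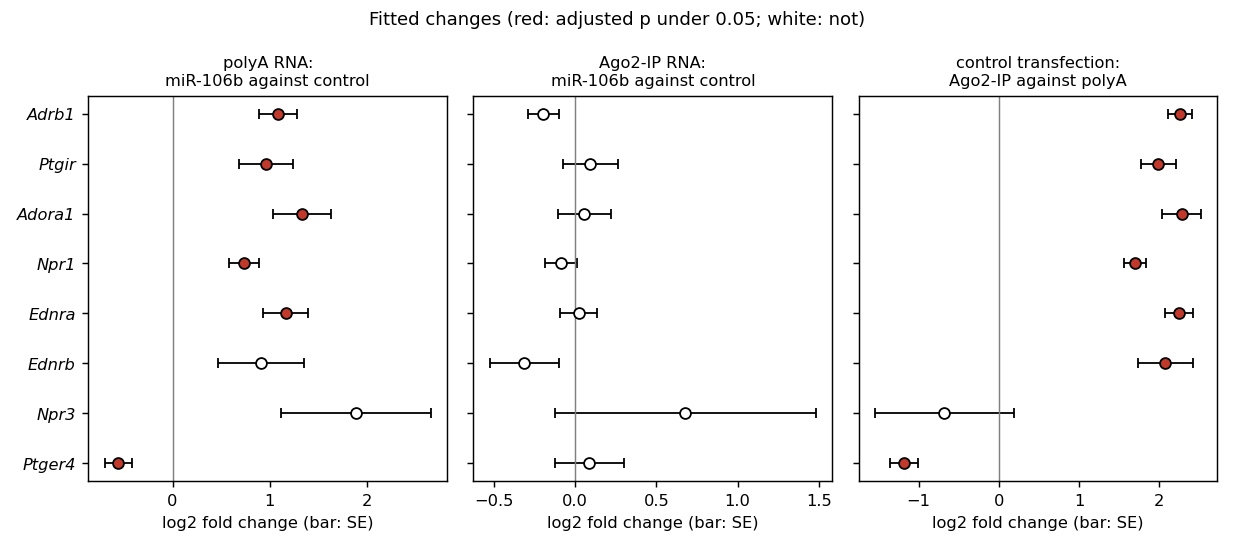
Fitted log2 fold changes (horizontal axes, each panel with its own range) of the 8 tested receptors, with bars of 1 SE, for miR-106b against control in polyA and in Ago2-IP RNA and for Ago2-IP against polyA RNA in control cells. Red points had an adjusted p under 0.05: 6 receptors in polyA RNA, 0 in Ago2-IP RNA and 7 between the kinds of RNA, with Ptger4 on the opposite side from the others.

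To compare receptors with each other, CPM (here scaled by TMM over all 16 libraries) were divided by the length of the gene's exons in kilobases. In Ago2-IP control the order began with Adrb1 at 24.5 ± 1.35, Npr1 at 13.0 ± 1.06, Ednra at 7.23 ± 0.459 and Ptgir at 5.04 ± 0.138 CPM per kb (SD, n = 4), and the libraries of these neighbours did not overlap. Adora1 (3.47), Ednrb (3.31), Npr3 (2.36) and Ptger4 (1.75) followed, each overlapping with the next, and Ptger2 was last at 0.0802 CPM per kb. With miR-106b the Ago2-IP order again opened with Adrb1 (21.1), Npr1 (12.1) and Ednra (7.21), and from Ednra to Ptger4 (1.81) neighbours in the order overlapped, with Ptger2 below them.

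In polyA control the leading 4 were Adrb1 at 5.17 ± 0.672, Npr1 at 4.06 ± 0.670, Ptger4 at 3.96 ± 0.244 and Npr3 at 3.94 ± 0.623 CPM per kb (SD, n = 4), none separated from its neighbour among these 4 but all above Ednra. Of the others, Ednra (1.53) and Ptgir (1.29) overlapped, and so did Ednrb (0.782) and Adora1 (0.720), while Ptger2 was at 0.0395 CPM per kb. With miR-106b, Npr3 was first in polyA RNA at 15.8 ± 15.7 CPM per kb, followed by Adrb1 (12.0), Npr1 (7.36) and Ednra (3.75). Ptger4 moved from a place beside Adrb1 and Npr1 to one beside Ednra (2.92 CPM per kb), overlapping with it.

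**Figure D3:**
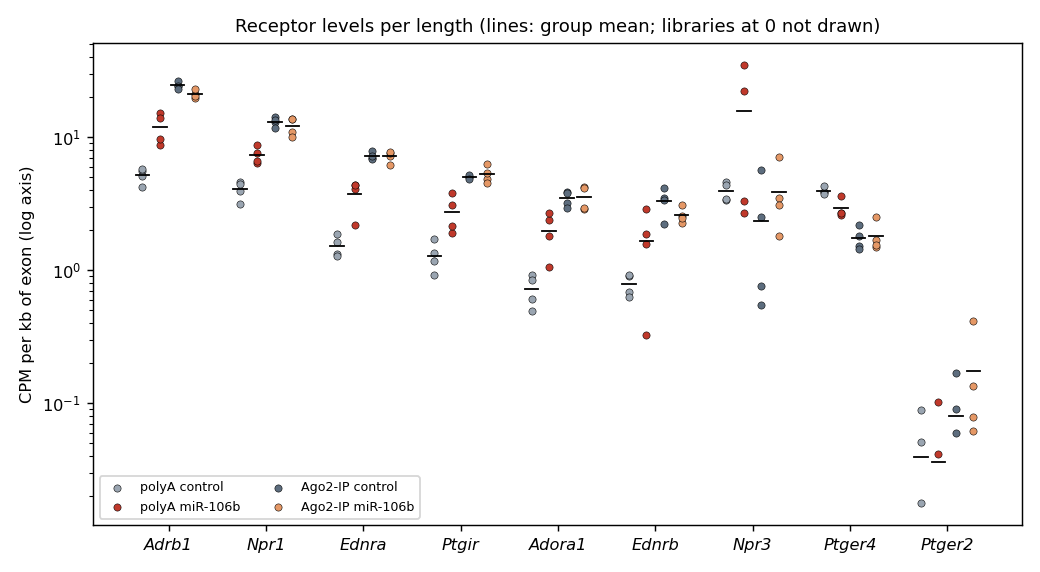
CPM per kb of exon (vertical axis, logarithmic) of the 9 receptors in the 16 libraries, coloured by group, with a line at each group mean; libraries at 0 are not drawn. Adrb1 and Npr1 have the highest Ago2-IP levels, Npr3 has the widest spread, and Ptger2 stays below 1 CPM per kb in every library.

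The mean levels of 6 of the 8 tested receptors went up from polyA control through polyA miR-106b to Ago2-IP RNA, as cardiac transcripts did, and those of Ptger4 and Npr3 did not. Relative to the mean of Ago2-IP control, in CPM scaled by library size, the summed cardiac transcripts stood at 25.6% in polyA control and 58.5% in polyA miR-106b. On that measure Adora1 was at 25.8 and 63.6%, Adrb1 at 26.2 and 54.6%, Ednra at 26.4 and 58.4%, Ednrb at 29.5 and 56.5%, Ptgir at 31.9 and 60.7%, and Npr1 at 38.8 and 63.3%. These 6 receptors and the cardiac transcripts thus had their lowest means in polyA control, intermediate ones in polyA miR-106b and the highest in Ago2-IP RNA. Ptger4 was at 281 and 187%, in the opposite order, and Npr3 was at 207 and 739%. Endothelial markers stood at 30.4 and 60.8%, leukocyte markers at 27.2 and 59.7% and renin and mural cell markers at 51.8 and 74.9%. Fibroblast markers departed from this order, at 63.1% in polyA control and 105% in polyA miR-106b, where libraries ranged from 78.0 to 145%. Within the renin and mural list, Acta2 and Tagln went in the opposite order. From polyA control through polyA miR-106b to Ago2-IP control, Acta2 had 757, 590 and 254 CPM and Tagln 498, 351 and 89.5 CPM. Of the 10 tested genes of that list, 8 were called higher and 2 lower in Ago2-IP than in polyA RNA of control cells. In bulk RNA, fewer cells of a type and less RNA per cell cannot be told apart.

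None of these lists had a gene called in Ago2-IP RNA. In polyA RNA, where 19.0% of all genes were called higher and 21.5% lower, calls were higher for 23 of 24 tested cardiac genes (median log2 fold change 1.23; Myl7, near 0, was not tested), 11 of 12 endothelial genes (1.18), 9 of 10 leukocyte genes (1.19) and 7 of 8 fibroblast genes (1.12). Of 10 tested renin and mural cell markers, 6 were higher and 1 was lower (0.96). Myh6, the cardiac myosin heavy chain, went from 10019 ± 1611 CPM in polyA control to 23166 ± 5755 CPM after miR-106b (SD, n = 4 each). Pecam1, an endothelial marker, was at 47.2 ± 6.78 and 98.9 ± 30.2 CPM, both genes being scaled by library size alone.

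Set against the cardiac transcripts of the same library, a scaling chosen after the data were seen, 4 of the 5 rises turned in direction. Per 10000 cardiac counts, Adrb1 had 4.30 in control and 3.90 with miR-106b in polyA RNA, and 4.17 and 3.73 in Ago2-IP RNA (means, n = 4 each). In the same order Ednra had 2.79, 2.70, 2.71 and 2.80, and Adora1 had 1.40, 1.50, 1.37 and 1.47. Across groups these 3 thus differed far less on this scale than in CPM, although the Ago2-IP groups of Adrb1 did not overlap (exact permutation test, two-sided, p = 0.0286). Ptgir had 1.42, 1.18, 1.15 and 1.25 and Ednrb 1.05, 0.824, 0.909 and 0.744. Npr1 fell with miR-106b in polyA RNA, from 6.46 ± 0.513 to 4.74 ± 0.696 (SD, n = 4 each), and the groups did not overlap (exact permutation test, two-sided, p = 0.0286). Adrb1 (p = 0.0571), Ptgir (0.171), Ednrb (0.429), Adora1 (0.743) and Ednra (0.857) overlapped between the polyA groups in the same exact test. Ptger4 fell on this scale too, from 8.87 ± 1.10 to 2.74 ± 1.16 (p = 0.0286, exact permutation test), and had 0.795 and 0.862 in Ago2-IP RNA. Npr3 had 11.9 and 21.7 in polyA RNA, with overlapping groups (p = 0.600, exact permutation test), and 1.50 and 2.54 in Ago2-IP RNA. The part of other cell types in the receptors' changes was not tested.

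**Figure D4:**
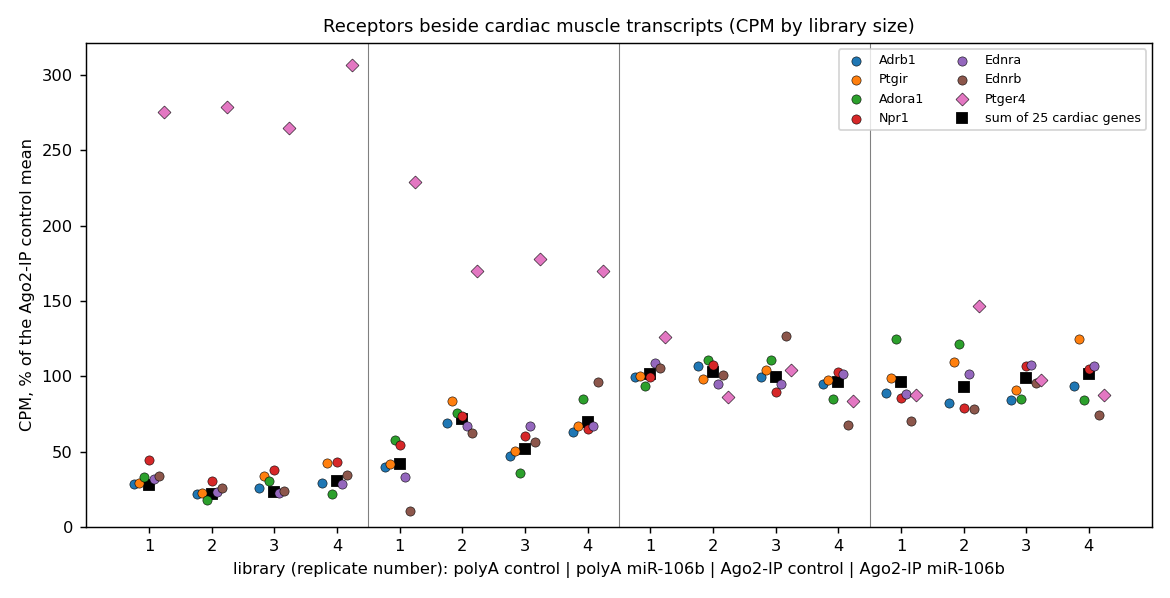
CPM scaled by library size, as percent of the Ago2-IP control mean (vertical axis, linear), of 7 receptors and of the sum of 25 cardiac genes (black squares) in each of the 16 libraries, by group. In polyA libraries the 6 receptors drawn as circles lie above or below the cardiac squares, with Npr1 above them in every control library and Ednrb at 10.8% in miR-106b replicate 1, and the squares range from 21.5 to 30.2% in control and from 41.5 to 71.3% with miR-106b, while Ptger4 (diamonds) lies between 170 and 307%.

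Likeness to other genes was described by Pearson's r of log2 CPM over the 16 libraries, which share the 4 groups and their depths, among 10948 other genes that averaged 5 CPM or more. The genes most like Adrb1 were Hand2 (r = 0.999), Sod3 (0.997) and Stard8 (0.997), and those most like Ednra were Tango2 (0.995), Ace (0.993) and Ucp3 (0.992). Ptgir was nearest to Cln3 (0.992), Klhl40 (0.991) and Tek (0.991), and Npr1 to Wipi1 (0.992), Abca8a (0.990) and Fam210a (0.990). Adora1 was nearest to Fuca2 (0.977), Zfp423 (0.974) and C1qtnf9 (0.974). Such patterns were common: for Adrb1, Ptgir, Adora1, Npr1 and Ednra between 2148 and 2656 genes had an r over 0.9. Ednrb had 76 such genes, led by Dot1l (0.961), Adgre5 (0.961) and Trap1 (0.943). Ptger4 had 573, led by Gtf3c5 (0.963), Fubp3 (0.954) and Eftud2 (0.954). Npr3 had only 7, led by Cemip (0.954), Angpt4 (0.937) and Npnt (0.937). Between receptors, Adrb1 had an r of 0.985 with Npr1, 0.981 with Ptgir, 0.977 with Ednra and 0.954 with Adora1, but -0.909 with Ptger4 and -0.348 with Npr3.

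The ligands, enzymes and signal carriers next to the receptors were taken from lists chosen by function, with earlier results of these data known. Of 27 other receptors of renin or mural cells, 18 were tested in polyA RNA, and 8 were called higher and 0 lower with miR-106b (median 0.94 on the log2 scale), against 19.0% and 21.5% of all genes. The largest rises among those called were those of Hrh2, the histamine H2 receptor (2.22, adjusted p = 0.00865, edgeR), Vipr1, a receptor for vasoactive intestinal peptide (1.99, adjusted p = 0.00831), Pth1r, the parathyroid hormone receptor (1.43, adjusted p = 0.000683), and Ramp2, the partner that makes an adrenomedullin receptor (1.12, adjusted p = 0.00142). Hrh2 and Vipr1 were low, at 0.254 and 0.616 CPM in polyA control, whereas Ramp2 went from 18.0 ± 2.29 to 39.1 ± 13.0 CPM (SD, n = 4 each).

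Of 25 genes for ligands of the receptors and the enzymes that make or break them, 22 were tested, and 11 were called higher and 3 lower (median 0.60), against 19.0% and 21.5% of all genes. Ptgis, which makes prostacyclin, rose by 1.29 (adjusted p = 0.000683, edgeR), from 14.7 ± 1.83 to 36.2 ± 6.59 CPM, while Ptgs2, the inducible cyclooxygenase of the macula densa, fell by 1.90 (adjusted p = 0.0119), from 56.3 ± 5.83 to 14.9 ± 12.2 CPM (SD, n = 4 each). Ptgs1, the constitutive cyclooxygenase, fell by 0.68 (adjusted p = 0.0159) and Ptges3, a prostaglandin E synthase and chaperone partner, by 0.61 (adjusted p = 0.00262). The other large rises among called genes were those of Entpd1, which breaks down ATP towards adenosine (1.38), Edn1, the endothelin 1 precursor (1.33), and Nppb, brain natriuretic peptide (1.23). Like Ptger4, Ptgs2 was lower in Ago2-IP than in polyA RNA of control cells, at 2.12 CPM and a log2 fold change of -4.40 (adjusted p = 1.23e-05, edgeR).

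All 30 signal carriers and regulators were tested, and 13 were called higher and 6 lower (median 0.37), the lower calls at a share near the 21.5% of all genes. Adrbk2, a kinase that desensitises receptors (1.20), Adcy5, an adenylate cyclase of renin cells (1.19), Rgs5, a mural cell inhibitor of G protein signals (1.18), and Gucy1a3, a subunit of the nitric oxide receptor (1.12), had the largest rises among those called. Prkg2, the cGMP-dependent kinase that restrains renin (-1.09, adjusted p = 0.0422, edgeR), Akap12, an anchor of protein kinase A (-0.92, adjusted p = 0.0101), Grk6, a further receptor kinase (-0.81, adjusted p = 0.000683), and Gnai3, an inhibitory G protein subunit (-0.63, adjusted p = 0.00578), had the largest falls among those called. Akap12 was abundant, with 2403 ± 134 CPM in polyA control and 1274 ± 487 CPM after miR-106b (SD, n = 4 each). In Ago2-IP RNA no gene of the 3 lists was called, and 0, 1 and 2 had an unadjusted p under 0.05, against 0.0% and 5.54% of all genes. With all 16 libraries in 1 fit, 13 receptors of the list were called higher and 3 signal carriers lower, where 3829 of all genes were higher and 2408 lower, against 2836 and 3198. The lower calls came to 1 ligand or enzyme without polyA control replicate 2 and to 2 signal carriers without polyA control replicate 3, where those of all genes came to 1640 and 1707. The lists of cardiac and other markers given above had medians of 0.96 to 1.23 in the same comparison. Not every marker rose: the means of Acta2 and Tagln were lower with miR-106b.

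**Figure D5:**
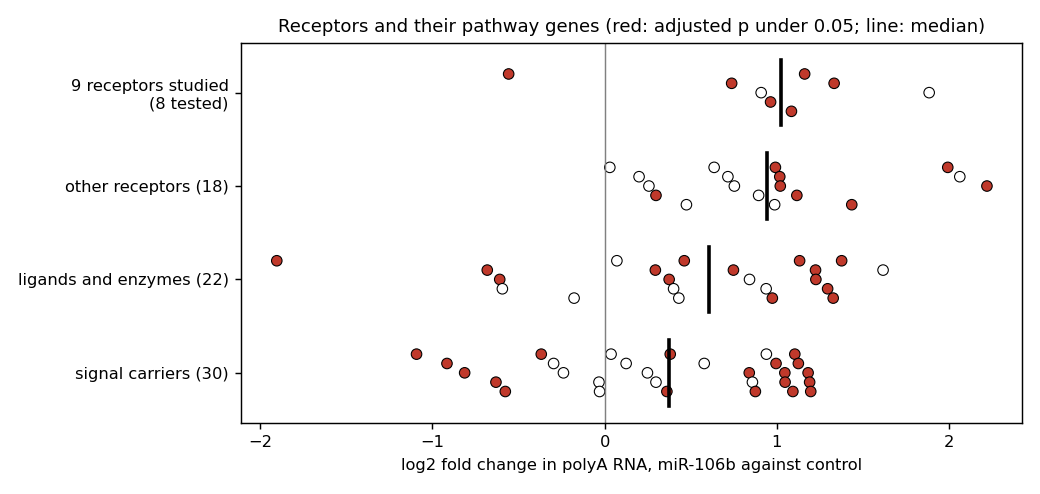
Log2 fold changes in polyA RNA, miR-106b against control (horizontal axis), of the 8 tested receptors and of the tested genes of 3 lists, where each point is a gene, red points had an adjusted p under 0.05 and lines are medians. The medians are 1.02 for the receptors, 0.94 for other receptors, 0.60 for ligands and enzymes and 0.37 for signal carriers, and the fall of 1.90 is Ptgs2.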

How the data were processed

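The deposited file holds raw counts of reads per gene, which the authors made from single-end, non-strand-specific libraries: reads that match ribosomal RNA were taken out and those left were aligned to the Ensembl GRCm38 transcriptome with TopHat2 (version 2.0.10 in the submitters' processing notes) and counted with HTSeq. Without strand, reads of a receptor and of a gene overlapping it on the opposite strand cannot be told apart. This touches Adora1, Ptger4, Npr1, Npr3, Ptger2 and Ednra, with 82 to 1162 shared exon bases. The 197 rows with no symbol stayed in the library totals, as they name genes by identifier. Starts in the file lie 1 below those of GENCODE M21 for 39223 of 44950 matched genes, so 1 was added.

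The tests ran under R 4.3.3 in edgeR 4.0.16 (TMM, robust quasi-likelihood F test, prior count 0.125), limma 3.58.1 and DESeq2 1.42.0, and in Python 3.11.15. Genes with at least 1 CPM in at least 3 of the 4 libraries of any group were tested (14897). The polyA and the Ago2-IP libraries were fitted separately, and comparisons between kinds of RNA used all 16. The SE is the fitted log2 fold change divided by the root of F. Exon lengths are from GENCODE M21 within the gene's locus. Fits were tested on simulated counts. Floors (3 counts where a count is 0) cover counting error only, while the SE includes the spread between cultures.

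Groups follow the sample labels. The receptors and all lists were chosen with earlier results of these data known. Genes named besides the receptors are those called in a list, up to the 4 largest rises and 4 largest falls, the 3 genes most like each receptor, and Mybph, Ren1, Akr1b7, Acta2, Tagln, Myh11, Myl7, Myh6 and Pecam1, chosen after their values were seen. The file calls 2 list members Adrbk2 and Gucy1a3 by older symbols. The alternatives were other scalings, filters, tests and prior counts, a replicate block, all libraries in 1 fit, and leaving out each library. Replicate numbers did not pair libraries.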

Additional observations from a re-analysis of the deposited data

Results flagged for a closer look

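In 3 of 36 sets of 4 libraries, 1 library lay far from the other 3, and chance alone does so in about 1 of 20 sets. For Ptger4, polyA miR-106b replicate 1 was the highest of its group, at 24.9 CPM against 18.2 to 18.9, and Ago2-IP miR-106b replicate 2 was the highest of its group, at 15.8 CPM against 9.32 to 10.3. For Ednra, polyA miR-106b replicate 1 was the lowest, at 12.3 CPM against 23.2 to 25.2.

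The difference between miR-106b and control libraries was not the same in Ago2-IP and polyA RNA for 6 receptors, by the interaction test in edgeR. Of all genes, 7.61% were called higher and 19.7% lower in that test. The difference between the log2 changes was -1.43 for Adrb1, -1.43 for Adora1, -1.36 for Ednrb, -1.28 for Ednra, -1.02 for Ptgir and -0.97 for Npr1. The call of Ednrb was lost when any of 13 of the 16 libraries was left out, and with the replicate block (adjusted p = 0.0697), DESeq2 size factors (0.0535) or scaling by library size alone (0.0789).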

How the results depend on the processing

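Among the alternatives, 328 of 348 receptor values kept their direction and call when no library was left out, and 482 of 512 when 1 was. Counts of receptors called changed by over 1.5 times in 1 comparison: lower in Ago2-IP than in polyA RNA with miR-106b were 2 rather than 1 under edgeR's likelihood ratio test, the Wald test of DESeq2 and scaling by library size alone, and 1 to 2 with 1 library left out. Per 10000 cardiac counts the polyA log2 ratio was -0.14 for Adrb1, -0.27 for Ptgir, -0.45 for Npr1, -0.047 for Ednra and -0.35 for Ednrb. With all 16 libraries in 1 fit Ednra in Ago2-IP RNA was at -0.0010, and Ednrb in polyA RNA was called (adjusted p = 0.0300, edgeR), as under the likelihood ratio test (0.0184) and with no filter (0.0169). Ednrb's ratio was lost with DESeq2 size factors (0.0535), library size alone (0.0789) and the replicate block (-1.34, 0.0697). Leaving out 1 library, the Ago2-IP log2 fold changes spanned -0.044 to 0.15 for Adora1, -0.0080 to 0.077 for Ednra, -0.13 to 0.21 for Ptger4 and -3.9e-06 to 0.16 for Ptgir. Numbers did not pair libraries: of 24 pairs of equal number, with correlations of -0.533 to 0.408, 3 were over 0.1, and in 9 of 48 cases a library correlated best with its own number in another group. With the replicate block 2576 genes were higher and 2935 lower in polyA RNA, and no other receptor's call changed. Genes called lower in polyA RNA were 3198, but 1834, 1640 and 1707 without polyA control replicates 1, 2 and 3, and 3829 were higher and 2408 lower with all 16 libraries in 1 fit. In Ago2-IP RNA 0 genes were called, 826 had an unadjusted p under 0.05, other tools and filters called up to 20, and 40 were called without Ago2-IP miR-106b replicate 4 and 8 without Ago2-IP control replicate 4. The ratio had 1810 genes higher under the likelihood ratio test and 1732 with no filter. Depth limits Ptger2, with 26 counts in all. The causes of these changes were not tested.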
